A study of Mus musculus with 10 samples.

Results

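The intestinal identity transcription factors examined here were Cdx1, Cdx2, Hnf4a, Hnf4g, Gata6, Klf4, Klf5 and Elf3, and they were followed through every probe set of the array that is annotated to 1 of them alone. All 8 genes were on the array, with 19 probe sets of the 34945 that carry 1 gene, and they make up 8 of the 18193 genes measured. Each array measured RNA of the distal colon of 1 C57BL/6 Rag1-/- mouse, a strain without lymphocytes that rearrange antigen receptors. The 4 control mice were injected with Tregs (regulatory T cells) and stayed non-inflamed, and the 6 inflamed mice were injected with naïve T cells, which bring on T cell transfer (TCT) colitis. The labels call 3 of the inflamed colons moderately and 3 severely inflamed. All mice were injected at 10 weeks of age and killed 2 to 3 months later, at 4 to 5 months. Pieces of whole colon wall were used, so fewer epithelial cells and less RNA per epithelial cell cannot be told apart. The labels name each array a biological replicate.

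The intestinal epithelium keeps its identity through a small set of transcription factors that bind together at the enhancers of enterocyte genes. The CDX homeobox factors hold the intestinal state against the gastric one, the HNF4 nuclear receptors drive absorptive and lipid genes, GATA6 marks epithelium and muscle of endodermal organs, and the Krüppel-like factors KLF4 and KLF5 belong to differentiated and dividing cells respectively. ELF3 is an epithelial ETS factor that inflammatory cytokines can induce.

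All 10 arrays had a median log2 value between 5.36 and 5.40. On the array's control probe sets, the log2 excess of the 3′ over the 5′ end of a transcript was 0.83 to 0.94 (Actb) and 0.05 to 0.32 (Gapdh) in control, and 0.68 to 1.02 and 0.07 to 0.49 in inflamed colon (exact permutation test over 210 splits of the arrays, two-sided, p = 0.519 and 0.19). The 20 pan-epithelial markers, led by Epcam and Krt8, averaged 11.23 to 11.31 in control and 11.26 to 11.42 in inflamed colon, a difference of 0.07 (exact p = 0.0762). Of the 20 markers, 3 were lower (Ocln, Marveld2 and Grhl2) and 5 higher (Cldn4, Tjp3, St14, Cldn7 and Krt19) in inflamed colon.

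In inflamed colon 2 of the 8 factors were lower (Gata6 and Klf5) and 1 was higher (Elf3) at an adjusted p under 0.05, where 21.2% of all genes were called lower and 18.5% higher. The share of the 8 that was called was near that of all genes. The log2 differences of the 8 factors ran from 0.08 to 0.38 in size, with a median size of 0.13, beside 0.19 for all genes. In severely inflamed colon alone the median sizes were 0.222 and 0.208, and relative to pan-epithelial markers 0.195 and 0.186, so the smaller size of the factors did not hold there. None of the 8 differed by 0.5 or more on the log2 scale, a size that 21.5% of all genes reached. The 4 controls and the 6 inflamed colons were fully separated for 1 of the 8 factors, Elf3, and for 31.7% of all genes.

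**Figure D1:**
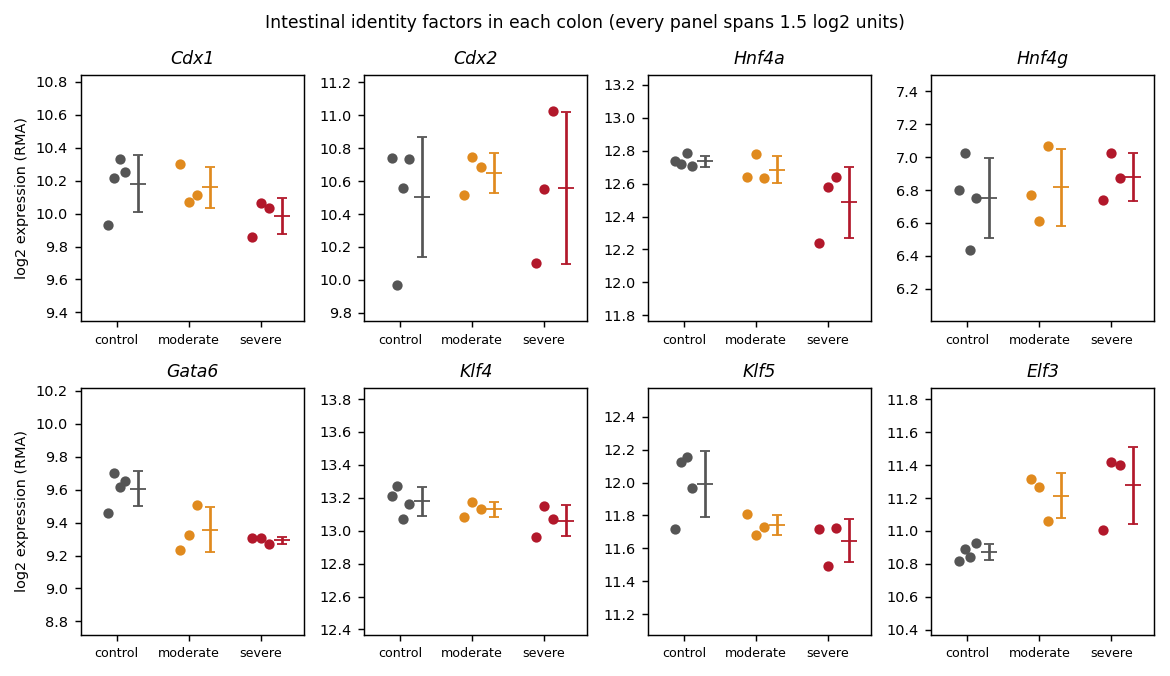
Log2 expression of the 8 factors in each colon (vertical axis, RMA values, each panel spanning 1.5 log2 units) for 4 control, 3 moderately and 3 severely inflamed colons; points are arrays, and the bar beside them is the mean ± SD. Elf3 separates the controls from all 6 inflamed colons, and Gata6 nearly does, while the other panels overlap.

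**Figure D2:**
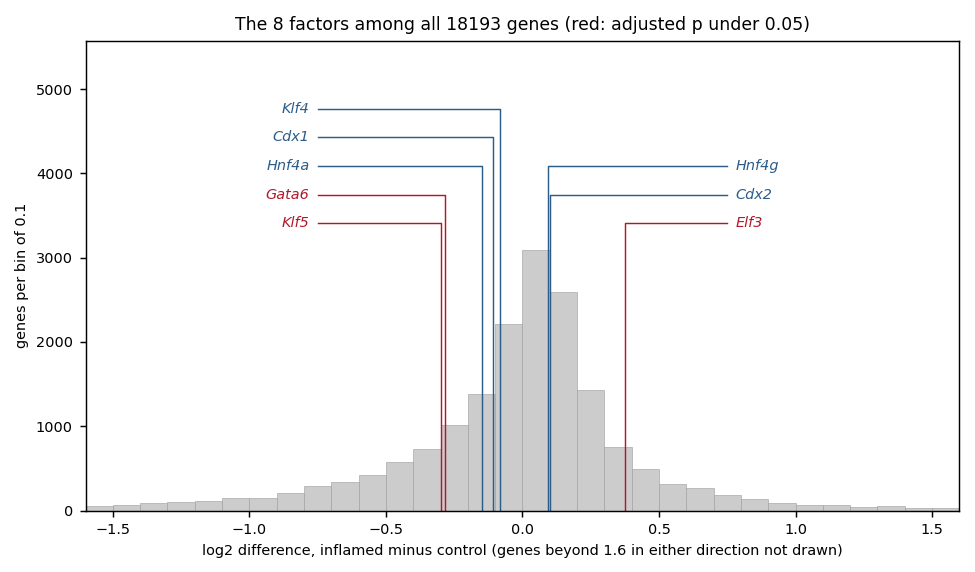
Distribution of the log2 difference between inflamed and control colon over all 18193 genes (grey bars, genes per bin of 0.1), with the 8 factors marked by lines, red where the adjusted p was under 0.05. The 8 factors lie between -0.30 and 0.38, within the central part of the distribution.

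Cdx1 and Cdx2, the caudal-type homeobox factors, showed no called change. The 4 controls read 9.93, 10.21, 10.33 and 10.25 for Cdx1, the 3 moderately inflamed colons 10.30, 10.07 and 10.11, and the 3 severely inflamed colons 9.86, 10.07 and 10.03. The groups overlapped, and control replicate 1 was the lowest control. Cdx1 differed by -0.11 between inflamed and control colon (95% interval -0.32 to 0.11, adjusted p = 0.41).

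Cdx2 was spread widely within groups: controls read 10.74, 9.97, 10.56 and 10.74, moderately inflamed colons 10.51, 10.75 and 10.69, and severely inflamed colons 10.10, 10.56 and 11.02. Control replicate 2 lay low and severe replicate 3 lay high. Cdx2 differed by 0.10 (95% interval -0.30 to 0.51, adjusted p = 0.695), and without control replicate 2 the difference was -0.08, so its sign rested on 1 array. The within-group SD of Cdx2, 0.35, stood at the 92.9th percentile of all genes. Its second, dimmer probe set, 1422074_at, differed by 0.15 (adjusted p = 0.555).

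Hnf4a and Hnf4g are nuclear receptors of fatty acid metabolism in enterocytes, and neither passed the test between inflamed and control colon. Hnf4a read 12.73, 12.72, 12.78 and 12.70 in control, 12.64, 12.78 and 12.63 in moderately inflamed and 12.24, 12.58 and 12.64 in severely inflamed colon. The controls lay close together, and severe replicate 1 stood apart below the other colons. Hnf4a differed by -0.15 (95% interval -0.35 to 0.06, adjusted p = 0.233), and by -0.25 in severely inflamed colon (95% interval -0.47 to -0.02, adjusted p = 0.0818). The severe difference passed with quantile normalization repeated (-0.27, adjusted p = 0.0426) and without severe replicate 3 (-0.32, adjusted p = 0.04999). With each array left out it ranged from -0.32 to -0.12, with an adjusted p of up to 0.311. The smallest fall was the one without severe replicate 1. Its 3 other probe sets, 1427000_at, 1421983_s_at and 1450447_at, differed by -0.09, -0.13 and 0.04, and none was called.

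Hnf4g was the dimmest of the 8, with its brightest probe set between 6.43 and 7.07 on the 10 arrays. It read 6.80, 7.02, 6.43 and 6.75 in control, 6.77, 6.61 and 7.07 in moderately inflamed and 6.74, 7.03 and 6.87 in severely inflamed colon, with wide overlap. Hnf4g differed by 0.09 (95% interval -0.17 to 0.36, adjusted p = 0.569), and by -0.04 when its 3 probe sets were averaged. The 3 disagreed in sign, at 0.09, 0.03 and -0.23 for 1460127_at, 1450518_at and 1422182_at.

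Gata6, a zinc finger factor of endoderm and muscle, was lower in inflamed colon. Its controls read 9.46, 9.70, 9.62 and 9.65, moderately inflamed colons 9.24, 9.33 and 9.50, and severely inflamed colons 9.31, 9.30 and 9.27. Only control replicate 1 and moderate replicate 3 overlapped. Gata6 fell by 0.28 on the log2 scale, or 1.22-fold (95% interval -0.44 to -0.12, adjusted p = 0.00928). The call rested on its brightest probe set, 1425464_at: 1425463_at and 1443081_at each differed by -0.12 without a call, and the mean over the 3 probe sets differed by -0.17 (adjusted p = 0.0513) and their median by -0.12 (adjusted p = 0.213). Smooth muscle also expresses Gata6, and all 10 smooth muscle markers fell in the same colons; their mean level was 10.30 to 10.67 in control and 8.59 to 9.35 in inflamed colon, and Myh11, a myosin of smooth muscle, fell by 2.27. The part of muscle in the Gata6 result was not tested.

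Klf4, a zinc finger factor of goblet and surface cells, gave different results on its 2 probe sets. On the brighter one, 1417394_at, controls read 13.21, 13.27, 13.07 and 13.16, moderately inflamed colons 13.08, 13.17 and 13.13, and severely inflamed colons 12.96, 13.15 and 13.07. The groups overlapped, and Klf4 differed by -0.08 (95% interval -0.23 to 0.06, adjusted p = 0.352). On 1417395_at controls read 12.90, 12.98, 12.90 and 12.86, moderately inflamed colons 12.43, 12.60 and 12.59, and severely inflamed colons 12.26, 12.58 and 12.55. Every inflamed colon was below every control there, and the value fell by 0.41 (adjusted p = 0.0015 over all probe sets). Averaged over both probe sets, Klf4 fell by 0.25 (adjusted p = 0.0106), so whether Klf4 counts as lower depends on which probe set stands for the gene.

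The 250 bases upstream of the transcription start are shown for Klf4 and Elf3, the members with an entry in the RefSeq promoter table (build GRCm38.p6) that had a probe set without overlap between groups. Capitals mark matches, on either strand, to the CDX motif TTTAT, the GATA motif AGATAA, the HNF4 motif CAAAGT, the KLF motif CCACCC and the ETS motif AGGAAG. The Klf4 window, minus strand, is chr4:55532476-55532725, and the Elf3 window, minus strand, is chr1:135258473-135258722.
Klf4: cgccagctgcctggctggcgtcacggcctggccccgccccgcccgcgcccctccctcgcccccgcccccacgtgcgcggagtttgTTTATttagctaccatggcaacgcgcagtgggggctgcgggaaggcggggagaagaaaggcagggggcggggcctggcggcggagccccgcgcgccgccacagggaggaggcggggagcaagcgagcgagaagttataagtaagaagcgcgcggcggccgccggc
Elf3: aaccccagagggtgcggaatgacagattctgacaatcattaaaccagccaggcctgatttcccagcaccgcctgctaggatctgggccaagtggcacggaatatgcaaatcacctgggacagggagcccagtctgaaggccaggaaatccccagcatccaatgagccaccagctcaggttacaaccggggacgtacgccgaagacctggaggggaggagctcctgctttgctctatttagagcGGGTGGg
Klf4 held 1 match, to the CDX motif, and Elf3 held 1 match, to the KLF motif read on the reverse strand. Of 32851 windows of this length in the table, 37.3% held the CDX motif, 28.1% the KLF motif, 29.5% the ETS motif, 12.6% the HNF4 motif and 9.99% the GATA motif. In the other windows of members, Cdx2 held 1 KLF and 1 ETS match, and of the 2 Hnf4a promoters the upstream one held 1 GATA, 2 KLF and 1 ETS match and the downstream one 2 KLF matches. These are matches of letters and do not show binding.

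Klf5, a zinc finger factor of dividing crypt cells, was lower in inflamed colon. Controls read 11.72, 12.12, 12.16 and 11.97, moderately inflamed colons 11.81, 11.68 and 11.73, and severely inflamed colons 11.72, 11.50 and 11.72. Control replicate 1 lay among the inflamed colons, and the other 3 controls lay above all of them. Klf5 fell by 0.30, or 1.23-fold (95% interval -0.50 to -0.09, adjusted p = 0.0253). The call was lost without control replicate 2 (adjusted p = 0.0817) or control replicate 3 (adjusted p = 0.0868), and with the median over its probe sets (adjusted p = 0.0539). A second probe set, 1451739_at, differed by -0.42 (adjusted p = 0.0528), and 1430255_at was dim, at a mean of 4.05, and differed by -0.07.

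Elf3, which has 1 probe set, was higher in inflamed colon. Controls read 10.82, 10.89, 10.84 and 10.93, moderately inflamed colons 11.32, 11.27 and 11.06, and severely inflamed colons 11.01, 11.42 and 11.40. All 6 inflamed colons lay above every control, the lowest of them being severe replicate 1. Elf3 rose by 0.38, or 1.30-fold (95% interval 0.18 to 0.58, adjusted p = 0.00615), and its call in the comparison of all 6 inflamed colons with control held under every alternative setting run and with each array left out.

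**Figure D3:**
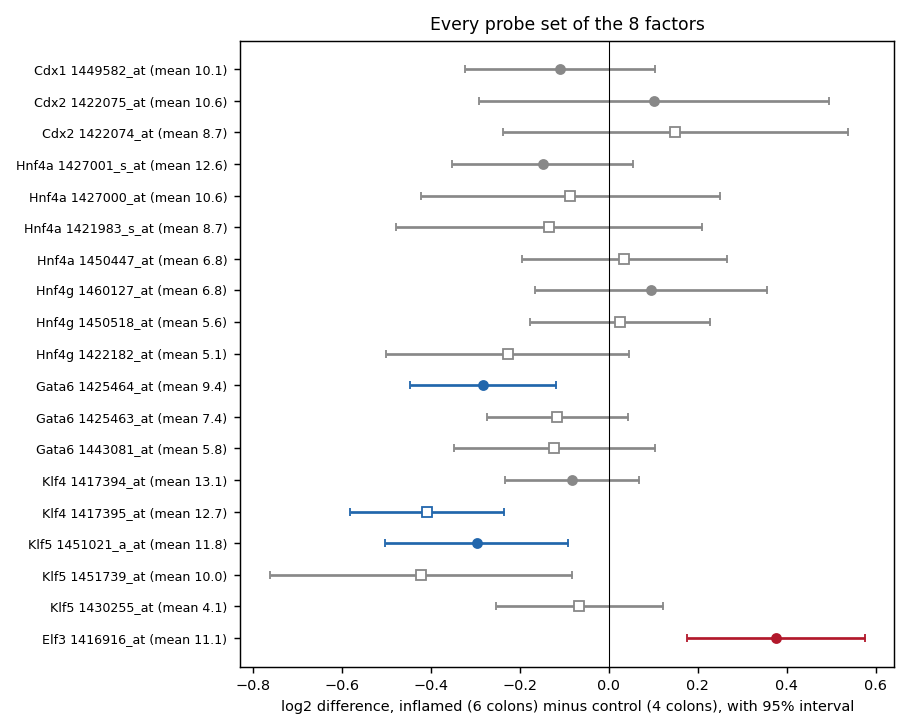
Log2 difference between 6 inflamed and 4 control colons for each of the 19 probe sets of the 8 factors (horizontal axis, with 95% interval); filled circles are the probe set used for the gene and open squares the others, blue lower and red higher at an adjusted p under 0.05, and the mean over all arrays is given in brackets. The interval of Klf4 1417395_at lies below 0 while that of its brighter partner spans 0, and the only probe set above 0 with a call is that of Elf3.

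Over all 19 probe sets, 3 were lower (Gata6 1425464_at, Klf4 1417395_at and Klf5 1451021_a_at), 1 was higher (Elf3) and 15 were not called, where 19.4% of all probe sets with 1 gene were lower and 16.5% higher. The median difference of the 19 was -0.11, beside 0.03 for all probe sets. Probe sets of 1 gene share its transcripts and are not replicates.

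Split by severity, severely inflamed colon showed Gata6 lower by 0.31 (adjusted p = 0.0191), Klf5 lower by 0.34 (adjusted p = 0.0364) and Elf3 higher by 0.41 (adjusted p = 0.0155). Among all genes 18.9% were lower and 16.1% higher there. In moderately inflamed colon Elf3 alone was called, at 0.34 (adjusted p = 0.0387), where 16.7% of genes were lower and 13.2% higher, while Gata6 and Klf5 each differed by -0.25 (adjusted p = 0.0577 and 0.126). Both comparisons use the same 4 controls. With groups of 3 these calls were fragile: in severely inflamed colon the Klf5 call was lost without control replicate 2, 3 or 4 or any 1 of the severe arrays (adjusted p = 0.0528 to 0.136), Gata6 without control replicate 2 (0.0532) or severe replicate 3 (0.0633) and Elf3 without severe replicate 2 (0.0649) or 3 (0.071). In moderately inflamed colon the Elf3 call was lost without any 1 of the controls or moderate replicate 1 or 2 (adjusted p = 0.0594 to 0.131), while without control replicate 1 Gata6 (0.0342) and Klf5 (0.0285), and without moderate replicate 3 Gata6 (0.0264), became called.

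The severe and moderate colons themselves did not differ by a call in any of the 8 factors, nor in any gene (0% of 18193, limma; 922 genes at an unadjusted p under 0.05, and 0 called by the methods' t-test). The smallest unadjusted p among the factors was 0.0947, for Hnf4a at -0.20 (95% interval -0.43 to 0.04), and the 8 differences ranged from 0.06 to 0.20 in size. A p that misses the threshold does not show that the severities were alike.

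To set the factors against the epithelium itself, each array's mean of the 20 pan-epithelial markers was subtracted. On this scale Gata6 differed by -0.35 (adjusted p = 0.00439), Klf5 by -0.36 (adjusted p = 0.00979) and Elf3 by 0.31 (adjusted p = 0.0083), and all 3 separated the controls from the inflamed colons without overlap, as did 30.5% of all genes on this scale. These were 2 factors lower and 1 higher, where 24.4% of genes were lower and 13.7% higher. Hnf4a differed by -0.21 (adjusted p = 0.0648), which passed under a model of 3 groups (adjusted p = 0.0427), and Cdx1 by -0.17 (adjusted p = 0.175). Cdx2 and Hnf4g differed by 0.04 and 0.03. Klf4 differed by -0.15 (adjusted p = 0.11) on its brightest probe set. With the mean over its probe sets Klf4 differed by -0.32 (adjusted p = 0.0016) and counted as lower. With the median over probe sets Klf4 was also lower (adjusted p = 0.00226), while the Gata6 call was lost (adjusted p = 0.0581). The subtraction assumes that the markers stand for the amount of epithelium, and some of them changed.

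Paralogs were compared within each array, which cancels any factor common to both genes. Cdx1 minus Cdx2 changed by -0.21 between control and inflamed colon (exact p = 0.386), Hnf4a minus Hnf4g by -0.24 (exact p = 0.2) and Klf4 minus Klf5 by 0.21 (exact p = 0.129). Adjusted over the 3 pairs these were 0.386, 0.3 and 0.3. With all arrays no pair passed the test, whereas the unadjusted exact p was 0.0476 for Hnf4a minus Hnf4g without moderate replicate 2 and 0.0238 for Klf4 minus Klf5 without control replicate 1. These ratios use the brightest probe set of each gene. Averaged over probe sets, Klf4 and Klf5 differed by -0.25 and -0.26, and Hnf4a and Hnf4g by -0.08 and -0.04. The size of these shifts therefore depended on the probe sets used.

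By profile over the 10 arrays, the distance between genes being the root mean square of their centred log2 values, the closest genes among 11809 genes above the arrays' median were the following. Elf3 lay nearest to Rusc1, Ticam1, an adaptor of Toll-like receptor signaling, and Zbtb7a (distances 0.06, 0.06 and 0.07). Gata6 lay nearest to Psenen, Vps72 and Zfp84 (0.05 each), and Klf5 to Zfp771, Ubl3 and Poldip2 (0.07 each). Klf4 lay nearest to Uqcrb, Vamp8 and Acad10 (0.04 to 0.05), Hnf4a to Speg, Zfp27 and Aasdh (0.06 to 0.07) and Cdx1 to Lrfn3, Smco4 and Ndufb8 (0.07 each). The profile of Cdx2 was matched less closely, by Crybg2, Ndrg1 and Pparg (0.13 to 0.15), and that of Hnf4g by Pawr, Uty and Tmed7 (0.09 to 0.10). Among the 8 themselves, Hnf4a and Klf4 (0.11) and Gata6 and Klf5 (0.12) were closest, and Cdx2 and Klf5 (0.41) and Klf5 and Elf3 (0.39) farthest apart. These distances describe likeness over 10 arrays and carry no test.

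Several other factors of the intestine moved further than the 8. Of 24 other intestinal and positional factors measured, 10 were lower, 4 higher and 10 not called, with a median of -0.32 beside -0.10 for the 8 factors and 0.03 for all genes. Ppargc1a, a coactivator of mitochondrial genes, fell by 1.99 and Nr5a2, a nuclear receptor of crypt cells, by 1.68. Creb3l3, a factor of lipid genes, rose by 0.72, and Isx and Nr1h4 by 1.20 and 0.57. Control and inflamed values overlapped for Isx and Nr1h4. Prdm1, a repressor of adult enterocyte genes in the fetal gut that plasma cells and activated T cells also express, rose by 3.05. T cell markers rose in the same colons (7 of 7 measured, mean level 4.95 to 5.21 in control and 6.48 to 7.39 in inflamed colon), and their part in the Prdm1 value was not tested. Of the 17 other Krüppel-like and SP factors measured, 6 were lower, 2 higher and 9 not called (median -0.03). Klf11 fell by 0.99 and Klf15 by 0.81, and Klf10 rose by 0.78 and Klf1 by 0.32. Beside the counts of both lists, 21.2% of all genes were lower and 18.5% higher.

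**Figure D4:**
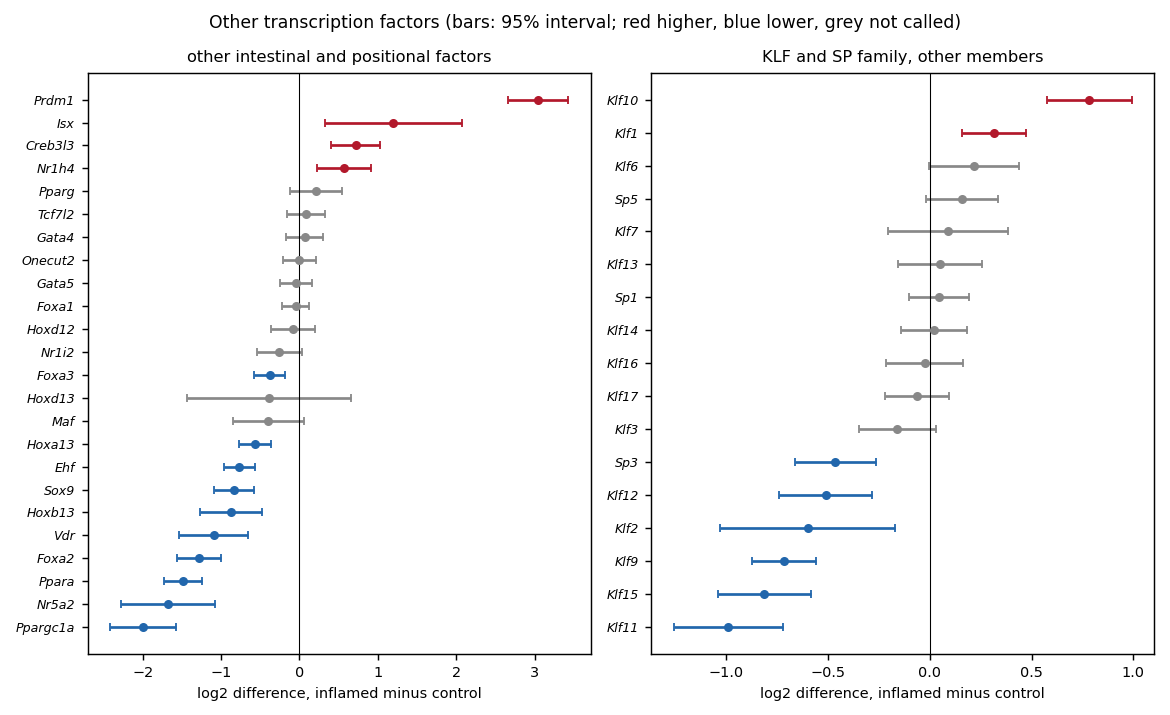
Log2 difference between inflamed and control colon (horizontal axis, 95% interval) for 24 other intestinal and positional factors and 17 other Krüppel-like and SP factors; red is higher, blue lower and grey not called. Prdm1 lies at 3.05 and Ppargc1a at -1.99, far outside the span of the 8 identity factors.

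Genes listed as targets of the CDX factors went both ways. Of 16 measured, 7 were lower, 4 higher and 5 not called, with a median of -0.02, where 21.2% of all genes were lower and 18.5% higher. Mep1a, a brush border protease, fell by 2.84 and Abcb1a, an efflux pump, fell by 2.75. Dsc2, a desmosomal cadherin, rose by 0.74, Krt20, a keratin of mature cells, by 0.57 and Cdh17, an intestinal cadherin, by 0.36. Isx rose by 1.20, with overlapping groups and a control SD of 1.07. The CDX levels themselves, at -0.11 and 0.10, were not called in the same colons.

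Genes listed as HNF4 targets leaned lower: of 22 measured, 11 were lower, 3 higher and 8 not called, with a median of -0.52. Among all genes 21.2% were lower and 18.5% higher. The list is not independent of these data, since Cyp2c55 and Ugt2b5, which fell by 7.62 and 4.24, were put on it with their falls known and their place as HNF4 targets is uncertain. Without these 2 genes 9 of 20 were lower, 3 higher and 8 not called, with a median of -0.43. Acsl5, an acyl-CoA synthetase, rose by 0.43, Myo1a, a brush border myosin, by 0.52 and Mttp, a lipid transfer protein, by 0.49. Mttp read only 4.96 in control and 5.45 in inflamed colon, beside a median of all values of 5.38, and its groups overlapped. Genes of this list thus moved in both directions while Hnf4a differed by -0.15. Of 12 colonocyte markers, 7 were lower and 1 higher in the same colons, with a mean level of 11.99 to 12.20 in control and 9.56 to 10.95 in inflamed colon, and their part in the values of this list was not tested. Mep1a, Cdhr5 and Vil1 stand on both the CDX and the HNF4 lists. The colonocyte markers include Cyp2c55, Mep1a and Slc26a3 of the HNF4 list, so those lists are not separate. They also include Car1, Guca2a, Mep1a and Krt20 of the CDX list.

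**Figure D5:**
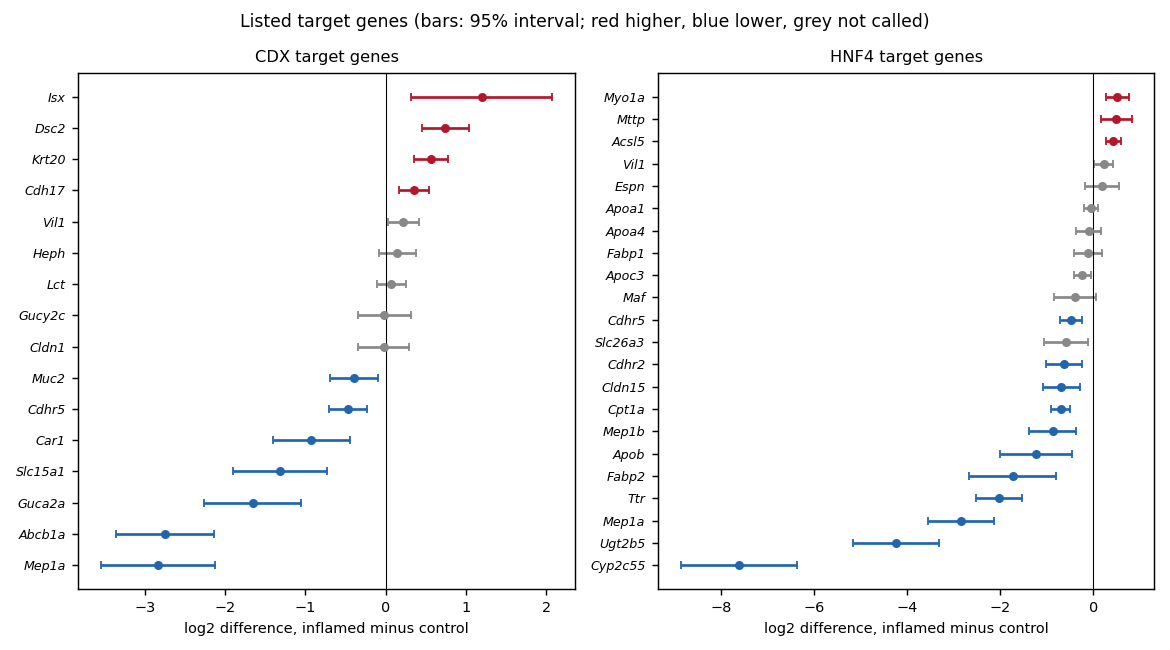
Log2 difference between inflamed and control colon (horizontal axis, 95% interval) for listed CDX targets and HNF4 targets; red is higher, blue lower and grey not called, and the 2 panels have different scales. Cyp2c55 and Ugt2b5, at -7.62 and -4.24, are the uncertain entries of the HNF4 list.

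Genes listed as targets of KLF4, KLF5 and ELF3 were mostly higher: of 15 measured, 10 were higher, 1 lower and 4 not called, with a median of 0.50. Among all genes 18.5% were higher and 21.2% lower. Like the other lists, this one was chosen with earlier results of these data known. It pools targets of 3 factors, and Krt8, Krt19 and Cldn7 are also pan-epithelial markers here. The counts therefore do not speak for the activity of any 1 of these factors. Sprr1a, a cornified envelope protein, rose by 3.49 and Lcn2, an iron-binding defense protein that neutrophils also hold, by 2.81, while Cdkn1c, a cell cycle inhibitor, fell by 0.96. Neutrophil markers rose too (7 of 8 measured), from a mean level of 4.56 to 5.15 in control to 6.72 to 8.89 in inflamed colon, and their part in the Lcn2 value was not tested.

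Of 23 gastric and foregut genes measured, 6 were higher, 2 lower and 15 not called, with a median of 0.14. Among all genes 18.5% were higher and 21.2% lower, with a median of 0.03. Not all of the list was silent in control colon, where Ctse and Krt7 read 10.85 and 9.87. Muc1, a membrane mucin, rose 2.83-fold (adjusted p = 0.0139), the largest rise of the list, although control and inflamed values overlapped. On the log2 scale Tff1, a trefoil peptide, rose by 0.26 (adjusted p = 0.015), also with overlapping groups. Gkn1, a gastrokine, rose by 0.23 (adjusted p = 0.0432) and Barx1, a stomach homeobox factor, by 0.21 (adjusted p = 0.0384). Gkn1 and Barx1 read only 4.48 and 5.43 in inflamed colon, beside a median of all values of 5.38. Averaged over its 2 probe sets, Gkn1 rose by 0.13. Krt7, a simple epithelial keratin, rose by 1.23. Vsig1, an adhesion protein of stomach epithelium, rose by 0.93, to a mean of 4.97, below the median of all values. Ctse, an aspartic protease, fell by 1.44, but by 0.74 when its 2 probe sets were averaged. Sox2, a foregut factor at a dim 2.95 in control, fell by 0.29.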

How the data were processed

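RNA of 10 distal colons was hybridised to whole-genome Affymetrix mouse arrays. The deposited table holds 1 log2 value for each probe set and colon, which the authors made with Expression Console and RMA, per the labels; versions are not given in the sources used here. Labels name Trizol and the methods a Qiagen kit for extraction. Scan dates and detection calls played no part, so no batch was examined. Every column of the table was used.

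From these values, 18193 genes took their brightest probe set (highest mean) among 34945 with 1 gene; 932 with several were left out. limma 3.58.1 (R 4.3.3; lmFit, eBayes, two-sided, Benjamini-Hochberg over all genes, threshold 0.05) compared inflamed with control (2 groups) and severities (3 groups, 1 spread). The code was tested on simulated data. Members, gene lists, tests and the naming rule (all members; per list the 2 largest non-overlapping called rises and falls; the 3 nearest profiles) were chosen with earlier results of these data known. Target and marker lists come from general knowledge. Muc1, Tff1, Gkn1, Barx1 and the motif letters were chosen after values were seen. Alternatives covered probe set summary, scaling, dim filter, variance model, weights, the methods' t-test, design, replicate block, left-out arrays and reference. Figures: matplotlib.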

Additional observations from a re-analysis of the deposited data

Results flagged for a closer look

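Of 38 groups of arrays tested over the 19 probe sets, 2 held an array far from the rest, about what chance gives at 1 in 20. Hnf4a 1427001_s_at read 12.242 in severe replicate 1, the lowest of the inflamed colons, with the nearest at 12.58. Gata6 1425464_at read 9.5046 in moderate replicate 3, the highest of the inflamed colons, with the nearest at 9.3269.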

How the results depend on the processing

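The counts of called factors were small and moved with the setting. In inflamed against control, 1 factor was lower with the replicate block (Gata6) or the median over probe sets (Klf4, with Gata6 and Klf5 lost), 2 with the mean over probe sets (Klf4 and Klf5), and 1 to 2 with each array left out. In severe against control the number lower was 1 by the methods' t-test, on the 2 groups alone or with arrays centred, 0 with the replicate block, 3 with quantile normalization repeated (Hnf4a, Gata6 and Klf5) and 0 to 2 with arrays left out; the number higher was 0 by the t-test and 0 to 1 with arrays left out. In moderate against control the number lower was 1 with array weights and 0 to 2 with arrays left out. The number higher there was 0 with the replicate block and 0 to 1 with arrays left out. Relative to the pan-epithelial mean the number lower was 3 with the mean over probe sets (Gata6, Klf4 and Klf5). With the median over probe sets it was 2 (Klf4 and Klf5). A model of 3 groups or quantile normalization repeated gave 3 (Hnf4a, Gata6 and Klf5), and left-out arrays 2 to 3.

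The labels name biological replicates and state no pairing. Over 9 same-number pairs, deviations from group means correlated at -0.08 to 0.29, and 2 of 9 were over 0.1. Those 2 were severe with moderate replicate 1 (0.29) and severe with moderate replicate 2 (0.25), beside -0.03 for replicate 3. A structure shared by number among the inflamed arrays is therefore not excluded. With the replicate block, Klf5 in inflamed colon had an adjusted p of 0.0646, Gata6 0.0326 and Elf3 0.0188. The replicate block for the paralogs was chosen after seeing the data and gave -0.27 (Cdx), -0.25 (Hnf4) and 0.22 (Klf).

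Reversed signs concerned differences without a call. With the mean over probe sets Hnf4g was -0.0353 (inflamed), -0.0369 (severe), -0.0337 (moderate), -0.00318 (severe minus moderate) and -0.11 (relative to epithelium), and Hnf4a 0.0219 (moderate); with the median over probe sets Hnf4g was -0.0439 (severe), -0.14 (severe minus moderate) and -0.0488 (relative), and Gata6 0.0302 (severe minus moderate). Cdx1 in moderate was 0.00294 with the replicate block and 0.00561 with arrays centred, and Cdx2 in severe minus moderate 0.11 with array weights. With arrays left out, Cdx2 ranged from -0.0751 to 0.20 (inflamed), -0.17 to 0.29 (severe), -0.0304 to 0.23 (moderate), -0.32 to 0.14 (severe minus moderate) and -0.14 to 0.13 (relative). Hnf4g ranged from -0.0112 to 0.18 (inflamed), -0.0624 to 0.17 (moderate), -0.0406 to 0.19 (severe minus moderate) and -0.0737 to 0.12 (relative), Cdx1 from -0.11 to 0.0285 (moderate), and in severe minus moderate Elf3 from -0.0142 to 0.20 and Gata6 from -0.12 to 0.0117. Probe sets Hnf4a 1450447_at, Hnf4a 1427000_at and Hnf4g 1450518_at ranged from -0.0402 to 0.10, -0.22 to 0.0475 and -0.00991 to 0.0887. With arrays left out, Hnf4a minus Hnf4g ranged from -0.34 to -0.12 and Klf4 minus Klf5 from 0.12 to 0.32. Each had an unadjusted exact p under 0.05 in only 1 of the 10 runs (without moderate replicate 2 and without control replicate 1). These ranges are for the brightest probe sets and do not cover the mean over probe sets, where both pairs moved nearly alike. The number of arrays, 10, limits all differences of this size.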
